A study of Mus musculus with 6 samples.

Results

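Binding of 5 proteins was mapped in mouse embryonic stem cells by chromatin immunoprecipitation and sequencing (ChIP-seq), and the regions described here carried peaks of Tgif1, Tgif2, Hdac1 and Nanog but no peak of Smad3. They were found by merging the 5 deposited peak lists wherever peaks overlapped by 1 bp or more on chromosomes 1 to 19. This gave 3371 regions of 32551, or 10.4% (95% Wilson interval 10.03 to 10.69). They were the fourth most frequent of the 31 combinations of factors, and are called 4-factor regions below. They were chosen by the presence and absence of the authors' peak calls, so their number and the strength of their peaks are a description and carry no test.

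All libraries came from J1 embryonic stem cells that contain BirA, a bacterial enzyme that biotinylates tagged proteins, grown in serum with leukemia inhibitory factor and fixed with 1% formaldehyde. The labels give no further treatment. Antibodies were used for Tgif1, Hdac1 and Smad3, and streptavidin beads for Tgif2 and Nanog, per the labels. The study's design text names the biotin method for Nanog alone, so the method for Tgif2 rests on its sample label. Each factor had 1 library and 1 peak list, so nothing could be compared between replicates and no difference below has a test over samples. The mock library was not analysed here. The lists held 16400 Tgif1, 19129 Tgif2, 16506 Hdac1, 17272 Nanog and 1226 Smad3 peaks, with between 43227 tags in Smad3 peaks and 1347497 in Tgif2 peaks. Total reads per library are not given in the sources used here. Intervals are 95% intervals over regions, cover counting error only, and treat regions as independent, which neighbouring regions are not.

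Tgif1 and its paralog Tgif2 are homeodomain proteins that act mainly as corepressors. Tgif1 can bind Smad proteins activated by TGF-beta and recruit histone deacetylases. Hdac1 is a histone deacetylase found in the NuRD, Sin3 and CoREST complexes, and Nanog is a homeodomain protein that helps keep embryonic stem cells pluripotent. Smad3 enters the nucleus when TGF-beta or Activin receptors are active and acts there together with Smad4.

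The 4-factor regions took similar parts of the 4 lists. They held 3668 Tgif1 peaks, or 22.5% of that list on these chromosomes (21.9 to 23.2). They also held 22.1% of the Nanog peaks (21.5 to 22.8), 21.7% of the Hdac1 peaks (21.1 to 22.4) and 19.3% of the Tgif2 peaks (18.8 to 19.9). Most had a simple make-up, with 2728 of the 3371, or 80.9%, holding exactly 1 peak of each factor. Nanog was the factor most often present with more than 1 peak, in 331 regions, against 280 for Tgif2, 269 for Tgif1 and 184 for Hdac1. Over all regions, 16833 Nanog peaks lay in 16188 regions and 18976 Tgif2 peaks in 18292. The 16273 Tgif1 peaks lay in 15626 regions and the 16398 Hdac1 peaks in 15991. All regions with more than 1 peak of a factor were not counted, so this order is not shown to be particular to 4-factor regions. The median region was 1409 bp wide, with quartiles of 1101.5 and 1928.5 bp.

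By fold, the median peak in 4-factor regions lay near the middle of its list for every factor, and by tags it lay higher. Fold enrichment is the authors' ratio of a peak to its background, and tags are the reads counted in the peak, both read from columns without a header. Where a factor had several peaks in a region, the one with the highest fold stood for it. The median fold was 15.1 for Tgif1 (quartiles 11.1 and 21.7), 15.1 for Tgif2 (11.2 and 21.8), 11.6 for Hdac1 (8.96 and 15.4) and 22.0 for Nanog (13.6 and 37.7). The median tags were 64 for Tgif1, 69 for Tgif2, 60 for Hdac1 and 38 for Nanog. Because each library has its own scale, a peak was placed by its percentile within its own list. By fold the median percentile was 59.1 for Tgif1 (57.7 to 60.8), 57.5 for Hdac1 (56.3 to 59.1), 54.9 for Tgif2 (53.7 to 56.6) and 46.0 for Nanog (43.9 to 47.3). By tags it was 70.1 for Hdac1, 63.7 for Tgif2, 63.6 for Nanog and 62.0 for Tgif1. Nanog was thus last by fold but not by tags.

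Strong peaks were counted as well, and fold and tags gave different shares. A Tgif1 peak in the top 20% of its list by fold was present in 863 of the 3371 regions, or 25.6%, where the share over all regions with Tgif1 was 20.6%. For Hdac1 it was 781 regions, or 23.2%, against 20.3% of all regions with Hdac1. For Tgif2 it was 755 regions, or 22.4%, against 20.5%, and for Nanog 653 regions, or 19.4%, against 20.3%. By tags the shares were 36.8% for Hdac1 against 20.2% over all regions with Hdac1, and 29.4% for Nanog against 20.3%. They were 29.1% for Tgif2 against 20%, and 27.8% for Tgif1 against 20.3%. The same peak calls chose the regions, so these shares describe them and show nothing further.

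The strengths of Tgif1, Tgif2 and Hdac1 peaks went together more closely than any of them did with Nanog. Across the 3371 regions, Spearman's rho of the fold was 0.68 between Tgif1 and Tgif2, 0.48 between Tgif1 and Hdac1, and 0.47 between Tgif2 and Hdac1. With Nanog it was 0.36 for Hdac1, 0.23 for Tgif1 and 0.16 for Tgif2. By tags the values with Nanog were 0.22 for Hdac1, 0.076 for Tgif1 and 0.0061 for Tgif2, against 0.64 between the Tgif paralogs. These are descriptions across regions of the same 4 libraries, and regions are not replicates. Nanog was the weakest of the 4 factors by percentile of fold in 1413 regions, or 41.9%, against 793 for Tgif2, 620 for Hdac1 and 545 for Tgif1. By percentile of tags it was the weakest in 1168 regions, or 34.6%, against 826 for each Tgif paralog and 551 for Hdac1. By tags it was also the factor most often strongest, in 1037 regions, or 30.8%, just ahead of Hdac1 with 1021. All 4 peaks lay above their list's median fold in 684 regions, or 20.3%, and all 4 lay in the top 20% in 115 regions. The counts of weakest and strongest factor and of jointly strong peaks were made for 4-factor regions only. They are therefore not shown to be particular to these regions.

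**Figure D1:**
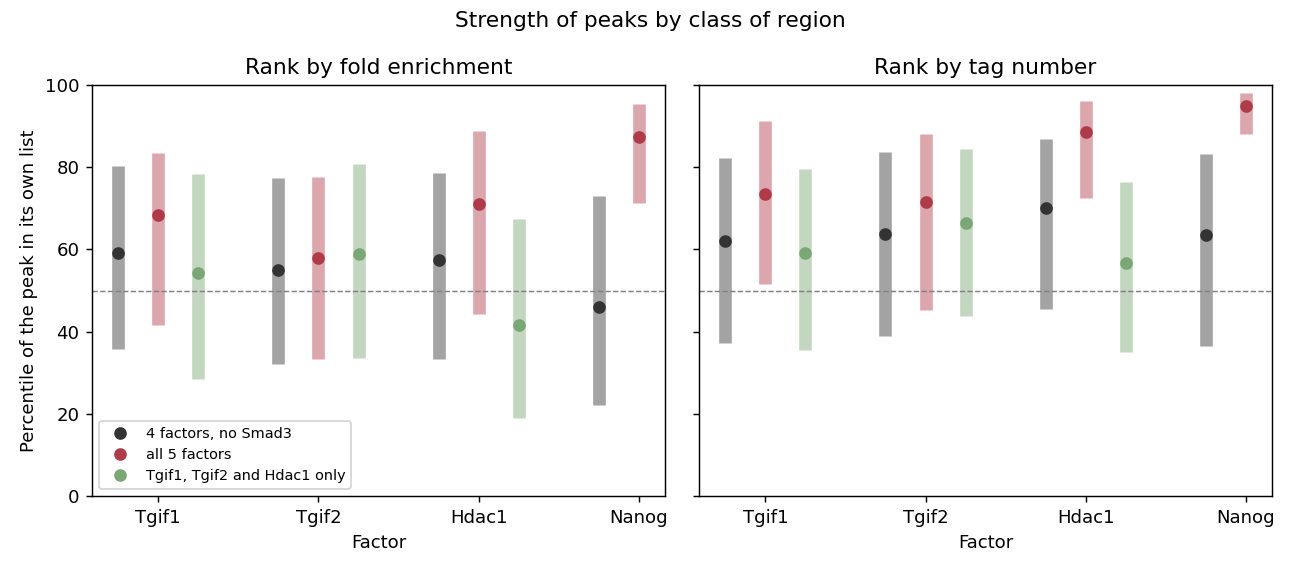
Percentile of a factor's peak within its own list (y axis, 0 to 100) by factor (x axis), ranked by fold enrichment on the left and by tag number on the right. Dots are medians and bars span the quartiles over the 3371 4-factor regions without Smad3, the 662 regions with all 5 factors and the 4895 regions with Tgif1, Tgif2 and Hdac1 only; the dashed line marks the list's median. Nanog peaks of 4-factor regions sit at a median percentile of 46.0 by fold, against 87.3 in regions with all 5 factors.

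Compared with regions that also held Smad3, the 4-factor regions had weaker peaks of all 4 factors by tags. By fold this held for Nanog, Hdac1 and Tgif1, while Tgif2 was not clearly different. The median Nanog fold was 22.0 in 4-factor regions and 58.5 in the 662 regions with all 5 factors, and the median Nanog tags were 38 and 136. The Nanog percentile by fold was 46.0 in 4-factor regions and 87.3 in 5-factor regions (85.5 to 89.0), and was lower in 4-factor regions on 19 of 19 chromosomes. The Hdac1 percentile by fold was 57.5 and 71.0 (68.5 to 73.4), lower in 4-factor regions on 17 of 19, and the Tgif1 percentile was 59.1 and 68.4 (64.4 to 70.9), lower on 13. For Tgif2 the percentile was 54.9 and 58.0 (54.0 to 61.4). Its intervals overlapped, and the 4-factor regions were lower on only 9 of 19 chromosomes by fold, although on 18 by tags. The percentile by tags was 63.6 in 4-factor regions and 94.8 in 5-factor regions for Nanog, and 70.1 and 88.7 for Hdac1. For Tgif1 it was 62.0 and 73.5, lower in 4-factor regions on 16 chromosomes, and for Tgif2 63.7 and 71.4.

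Set against the 4895 regions with Tgif1, Tgif2 and Hdac1 but neither Nanog nor Smad3, the Hdac1 peak differed most. Its median fold was 11.6 in 4-factor regions and 9.78 in the regions without Nanog. Its median percentile was 57.5 and 41.7 (40.7 to 43.2) by fold, and 70.1 and 56.8 by tags. It was higher in 4-factor regions on 19 of 19 chromosomes by both measures. The Hdac1 peaks of both classes were alike in width, with medians of 1137 and 1146 bp. For Tgif1 the percentile by fold was 59.1 and 54.3 (52.8 to 55.7), higher on 17 chromosomes. For Tgif2 it was 54.9 and 58.8 (57.4 to 60.2), lower on 16. The paralogs thus stood on opposite sides of the regions without Nanog.

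The 10 regions that ranked highest in their weakest list were compact places with strong peaks of all 4 factors. Coordinates are those of mm9 as deposited, with an uncertainty of 1 bp, and no gene is named because annotation of that build was not used here. The first was chr15:93350673-93352196, with a fold of 54.2 for Tgif1, 58.6 for Tgif2, 40.0 for Hdac1 and 504 for Nanog. At chr3:108236165-108237517 the fold was 67.8 for Tgif1, 56.8 for Tgif2, 59.95 for Hdac1 and 253 for Nanog. At chr17:30016889-30017852 it was 97.9 for Tgif1, 122 for Tgif2, 28.5 for Hdac1 and 128 for Nanog. The first region led on Nanog and the last of these on both Tgif paralogs, while the Hdac1 fold stood highest in the middle one.

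At chr2:109781994-109782882 the fold was 48.8 for Tgif1, 75.02 for Tgif2, 26.6 for Hdac1 and 141 for Nanog. The other 6 were chr9:122194536-122195171, chr10:19123764-19124757, chr9:94561808-94562906, chr4:138788084-138789241, chr14:35821914-35822862 and chr11:32734507-32735860. Over the 10 regions the fold ranged from 37.3 to 97.9 for Tgif1, from 40.8 to 122 for Tgif2, from 24.5 to 59.95 for Hdac1 and from 93.2 to 504 for Nanog. Each held 1 peak per factor. Their widths ran from 635 to 1523 bp and the span of their 4 summits from 21 to 165 bp.

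Regions that led in 1 factor were often ordinary in another. The highest Tgif1 fold was 158 at chr11:5640174-5641843, where Tgif2 reached 123, Hdac1 37.0 and Nanog 17.2. At chr11:94852967-94854911 the fold was 120 for Tgif1, 92.8 for Tgif2 and 19.3 for Hdac1, but 7.58 for Nanog, whose peak held 16 tags, the lowest number in the Nanog list. The next Tgif1 peak, at chr13:40811943-40813418, reached 105 with a Nanog fold of 58.2. In these leading Tgif1 regions the Nanog peak thus ranged from barely called to strong. Other regions with strong Tgif1 peaks were not examined in this way.

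The highest Tgif2 fold was 217 at chr6:127650597-127651607, where Tgif1 had 38.4, Hdac1 11.5 and Nanog 22.3. It was followed by 149 at chr15:37167943-37169053 and by the leading Tgif1 region. The highest Hdac1 fold was 61.5 at chr15:76352319-76354675, where the summits spread over 1615 bp. It was followed by 59.95 on chromosome 3 at the region named above and by 59.3 at chr7:86805842-86806859. The highest Nanog fold was 631 at chr12:100537883-100538810, with 26.0 for Tgif1, 18.2 for Tgif2 and 27.9 for Hdac1. The next were 598 at chr2:33435369-33438130 and 504 at the leading region on chromosome 15.

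The 4 peaks of a region usually shared a common core. In 3025 of 3371 regions, or 89.7% (88.7 to 90.7), the 4 chosen peaks all covered at least 1 same base, and the shared stretch had a median of 613 bp. In the 2728 regions with 1 peak per factor the share was 97.8%. Regions were made by merging overlapping peaks, so a high share is in part given by the rule. In 5-factor regions the share was 91.7% (89.3 to 93.6), with an overlapping interval, so the core was not particular to 4-factor regions. The summit is the position inside the peak that the authors' list gives, taken as the point of highest signal. The 4 summits spanned a median of 164 bp (154 to 177), with quartiles of 74 and 517.5 bp. They lay within 200 bp in 1836 regions, or 54.5% (52.8 to 56.1), and within 50 bp in 445 regions, or 13.2%. In 395 regions, or 11.7%, they spread over more than 1000 bp. Without peaks under their list's median fold the median span was 97 bp, with peaks joined by summits 88 bp, and with peak midpoints 259 bp.

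Summits were more spread in 4-factor regions than in regions that also held Smad3. The median span was 164 bp (154 to 177) in 4-factor regions and 129.5 bp (118 to 142) in 5-factor regions, and 54.5% and 66.5% (62.8 to 70.0) had their 4 summits within 200 bp. The Nanog summit lay 72 bp (67 to 77) from that of Tgif1 in 4-factor regions and 55 bp (50 to 64) in 5-factor regions. The distance between the Tgif paralogs was 41 bp (39 to 44) and 39 bp (34 to 44), with overlapping intervals. In 4-factor regions with 1 peak per factor the median span was 134 bp (129 to 142), and its interval overlapped that of the 5-factor regions. The 5-factor regions were not limited in this way, so the classes were not compared at equal numbers of peaks.

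Among the 6 pairs of summits, Tgif1 and Tgif2 lay closest. Their median distance was 41 bp (39 to 44), against 56 bp (53 to 59) for Tgif1 and Hdac1, 59 bp (56 to 62) for Hdac1 and Nanog, and 62 bp (59 to 65) for Tgif2 and Hdac1. Nanog lay 72 bp (67 to 77) from Tgif1 and 80 bp (74 to 85) from Tgif2. The intervals of the middle 3 pairs overlapped one with the next, so their order was not resolved. The paralogs were the closest pair in 869 regions, or 25.8% (24.3 to 27.3), followed by Hdac1 and Nanog in 597, or 17.7% (16.46 to 19.04). Tgif2 and Nanog were the closest pair least often, in 363 regions, or 10.8%. In 84 regions pairs were tied.

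**Figure D2:**
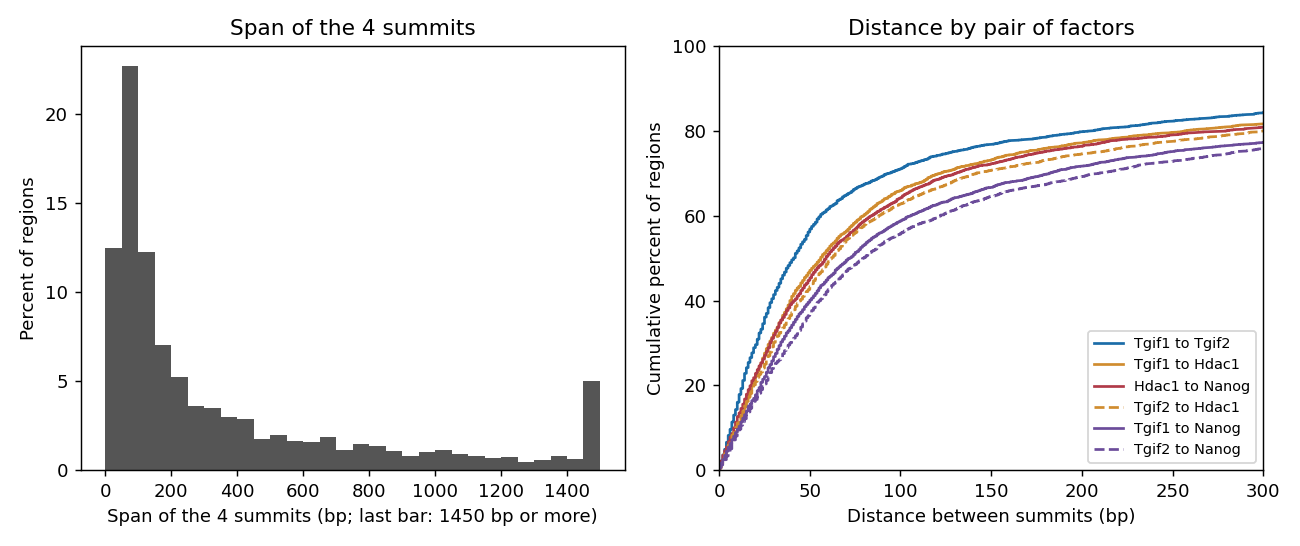
Left, percent of the 3371 regions (y axis) by the span of the 4 summits in bp (x axis), with the longest spans collected in the last bar. Right, cumulative percent of regions (y axis) by the distance between 2 summits in bp (x axis), 1 line for each of the 6 pairs; the Tgif1 to Tgif2 line is leftmost, with a median of 41 bp, and the Tgif2 to Nanog line rightmost, with 80 bp.

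Where 1 summit stood apart, it was most often Nanog. Regions in which 3 summits lay within 100 bp of each other were examined for the remaining factor. Nanog was more than 200 bp outside the other 3 in 204 of 1672 such regions, or 12.2% (10.7 to 13.9), at a median of 568 bp. Tgif2 stood apart in 134 of 1541, or 8.70% (7.39 to 10.2), Hdac1 in 83 of 1487, or 5.58%, and Tgif1 in 80 of 1444, or 5.54%. With 1 peak per factor the order at the top was the same, with 9.20% for Nanog and 6.55% for Tgif2, and then 4.24% for Hdac1 and 3.88% for Tgif1. In 5-factor regions Nanog also stood apart most often, in 27 of 360, or 7.50% (5.21 to 10.7). Hdac1 followed there at 5.94% (3.83 to 9.09), with an overlapping interval.

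In a further group the summits formed 2 separate pairs. Tgif1 with Tgif2 on one side and Hdac1 with Nanog on the other, each pair within 100 bp and the pairs more than 200 bp apart, was found in 152 regions, or 4.51% (3.86 to 5.26). The distance between these pairs had a median of 496 bp. The split of Tgif1 with Nanog from Tgif2 with Hdac1 was found in 53 regions, or 1.57% (1.20 to 2.05). That of Tgif1 with Hdac1 from Tgif2 with Nanog was found in 51, or 1.51% (1.15 to 1.98). With 1 peak per factor the counts were 106, 37 and 35 in the same order. When peaks were joined only by summits within 200 bp, which keeps distant pairs out of a region, the first share was 0.785%. In 5-factor regions the split of the Tgif paralogs from Hdac1 with Nanog was found in 32, or 4.83% (3.44 to 6.74). Its interval overlapped that of 4-factor regions, so the arrangement was not particular to them.

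Regions with tight and with spread summits were also described by width, number of peaks and strength. Summits over 500 bp apart in 1 region need wide peaks or several joined peaks. Larger widths and more peaks in spread regions are therefore in part given by the grouping. The 1201 regions whose summits spanned at most 100 bp had a median width of 1215 bp, against 2122 bp for the 865 regions with a span over 500 bp. In the tight regions 91.2% held 1 peak per factor, against 49.5% of the spread ones. The median Nanog fold was 25.8 in tight regions and 18.5 in spread ones, and the median Nanog tags were 43 and 32. For Tgif1 the fold was 16.8 and 13.9 while the tags were 59 and 78, so fold and tags pointed in opposite directions. The same held for Tgif2 with 16.5 and 14.6 in fold but 63 and 87 in tags, and for Hdac1 with 12.8 and 10.3 in fold but 55 and 73 in tags. The Tgif1, Tgif2 and Hdac1 peaks of spread regions were also wider: the tight regions had medians of 837, 870 and 977 bp, against 1298, 1336 and 1541 bp in the spread ones. The Nanog peaks were 701 bp wide in tight regions and 723 bp in spread ones, with overlapping intervals.

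The tightest and the widest regions give examples. In 51 regions the 4 summits fell within 20 bp. The strongest of them by their weakest list were chr2:93675592-93676929 with a span of 11 bp, chr2:33435369-33438130 with 18 bp and chr10:68258028-68258976 with 18 bp. The widest region, chr5:139467201-139474559, covered 7358 bp and held 14 peaks. The next, chr17:71196904-71204069, covered 7165 bp with 5 peaks, and its summits spanned 4793 bp. The last of the 3, chr11:98820631-98827528, covered 6897 bp with 12 peaks. Width thus came from many joined peaks in the first and last, and from broad peaks in the middle one, where the Tgif1 peak held 695 tags and the Tgif2 peak 595.

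Whether a region with these 4 factors also held Smad3 went with the strength of Nanog far more than with that of the Tgif paralogs. In all, 4033 regions held the 4 factors, and 662 of them, or 16.4% (15.3 to 17.6), also held Smad3. The 4033 regions were cut into 5 groups of 806 or 807 by the fold of 1 factor at a time. By Nanog fold, Smad3 was present in 1.12% (0.588 to 2.11) of the weakest group, then in 5.33%, 9.17% and 22.6%, and in 43.9% (40.5 to 47.3) of the strongest. By Hdac1 fold it was present in 11.3% of the weakest group and 26.0% (23.1 to 29.2) of the strongest. By Tgif1 fold the shares were 13.5% in the weakest group, 22.0% in the group below the strongest and 18.3% in the strongest. By Tgif2 fold they were 16.1% in the weakest group and 15.99% in the strongest, with no steady order between.

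Ranking by tags widened the range for all 4 factors. By Nanog tags Smad3 was present in 0.743% (0.341 to 1.61) of the weakest group and 52.4% (49.0 to 55.8) of the strongest. By Hdac1 tags the shares were 4.96% and 33.0%, by Tgif1 tags 10.5% and 25.8%, and by Tgif2 tags 14.3% and 20.6%. The Smad3 list was the shortest, and binding below the authors' threshold was not detectable here.

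**Figure D3:**
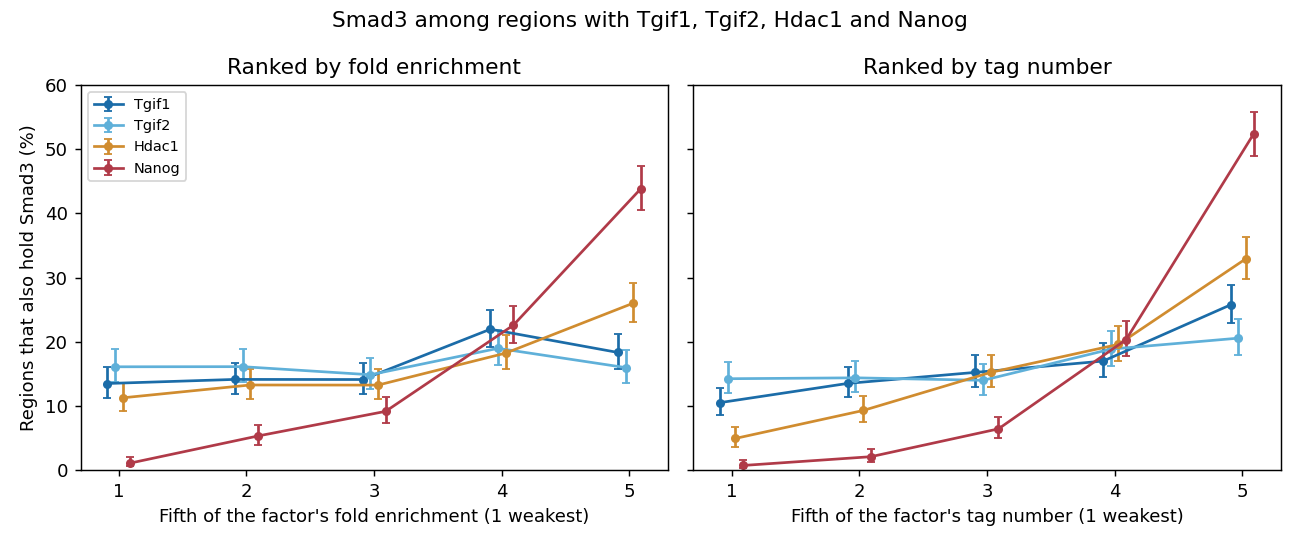
Percent of regions with Tgif1, Tgif2, Hdac1 and Nanog that also hold a Smad3 peak (y axis), in 5 equal groups by 1 factor's fold enrichment (left) or tag number (right), from weakest to strongest (x axis). Points are shares of 806 or 807 regions and bars are 95% Wilson intervals; the Nanog line runs from 1.12% to 43.9% by fold, while the Tgif2 line stays between 14.9% and 18.98%.

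Even with strong Nanog, many regions had no Smad3. Of the 807 regions in the strongest group by Nanog tags, 384 were without Smad3 and 423 had it. Nanog was not equal between them, with a median of 147 tags (141 to 154) without Smad3 and 195 (183 to 209) with it. Hdac1 tags were 73 (70 to 77) without Smad3 and 92 (88 to 98) with it, Tgif1 tags 70.5 and 83, and Tgif2 tags 72 and 86. By fold the differences were smaller, with 14.8 and 15.8 for Tgif1, 13.4 and 14.6 for Tgif2, and 11.6 and 12.9 for Hdac1. For each of these factors the intervals by fold overlapped. In the strongest group by Nanog fold, the Tgif1 fold was 17.9 in 453 regions without Smad3 and 18.2 in 354 with it, with overlapping intervals. By tags the intervals lay apart, with medians of 58 without Smad3 and 74 with it for Tgif1, 61 and 75 for Tgif2, and 59 and 82 for Hdac1. Nanog itself was lower without Smad3, with a fold of 77.9 against 91.8 and 117 tags against 191. Nanog peaks in the top 5% of their list by fold occurred in 163 4-factor regions, or 4.84%, where the share over all regions with Nanog was 5.08%, and in 169 5-factor regions, or 25.5%.

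Smad3 peaks lay nearer to 4-factor regions than to most other regions that lack Smad3. The median distance to the nearest Smad3 peak was 313 kb (293 to 335) from 4-factor regions, against 436 kb (426 to 444) over all regions without Smad3. A Smad3 peak lay within 10 kb of 240 4-factor regions, or 7.12% (6.30 to 8.04), where the share over all regions without Smad3 was 4.67%. It was 2.96% (2.52 to 3.48) for regions with Tgif1, Tgif2 and Hdac1 only and 6.23% (5.19 to 7.47) for regions with Hdac1 and Nanog only. Among 4-factor regions alone, this share was nearly level with Nanog strength. In 5 groups by Nanog fold it was 6.96%, 7.72%, 6.97%, 7.12% and 6.82% from weakest to strongest, with overlapping intervals. The groups cut above for the overlap with Smad3 also held the 5-factor regions, so the trends are not directly comparable. When weaker peaks of all 5 lists, those under the median fold, were left out, the overall share was 3.70%.

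At the edge of the rule, the nearest 4-factor region to a Smad3 peak was chr2:109781994-109782882, one of the 10 strong regions, at 268 bp. It was followed by chr11:77705179-77708106 at 271 bp and chr11:8485659-8488019 at 299 bp. Among 5-factor regions, Smad3 overlapped the other peaks over the fewest bases at chr11:102680137-102682925 with 305 bp, chr9:37464339-37465372 with 362 bp and chr6:52054705-52057168 with 369 bp. In these 3 the Smad3 peak lay wholly inside the other peaks, so they hold narrow Smad3 peaks and are not borderline overlaps. The same was true of 625 of the 662 5-factor regions, or 94.4%. A Smad3 peak lay within 1 kb of 34 4-factor regions, or 1.01%, where the share over all regions without Smad3 was 0.691%. It was 1.05% for regions with Nanog alone and 1.15% for those with Hdac1 and Nanog only, with overlapping intervals. The least firmly joined regions were chr9:118990984-118993983, chr4:146927010-146929884 and chr10:80392349-80396836, where consecutive peaks met over 1, 4 and 5 bp. When peaks under their list's median fold were left out, 784 regions met the rule.

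The 4-factor regions lay close to one another. The median distance to the next one was 57.0 kb (51.3 to 62.8). Another 4-factor region lay within 10 kb of 761 of them, or 22.6% (21.2 to 24.02), where the share over all other regions was 12.4%. The share was higher for 4-factor regions on 19 of 19 chromosomes. Among the other combinations with at least 300 regions, 5-factor regions had a 4-factor region within 10 kb most often, in 26.1% (22.9 to 29.6). They were followed by the combinations of Nanog with Tgif1 and 1 more factor, at 18.3% with Tgif2 and 18.2% with Hdac1. Regions with Nanog alone had the lowest share, 10.5% (9.78 to 11.2), and regions with Tgif1, Tgif2 and Hdac1 only had 10.9% (10.05 to 11.79). Without peaks under their list's median fold the share within 10 kb was 8.42%, and the difference from other regions was 5.17 percentage points, against 10.2.

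**Figure D4:**
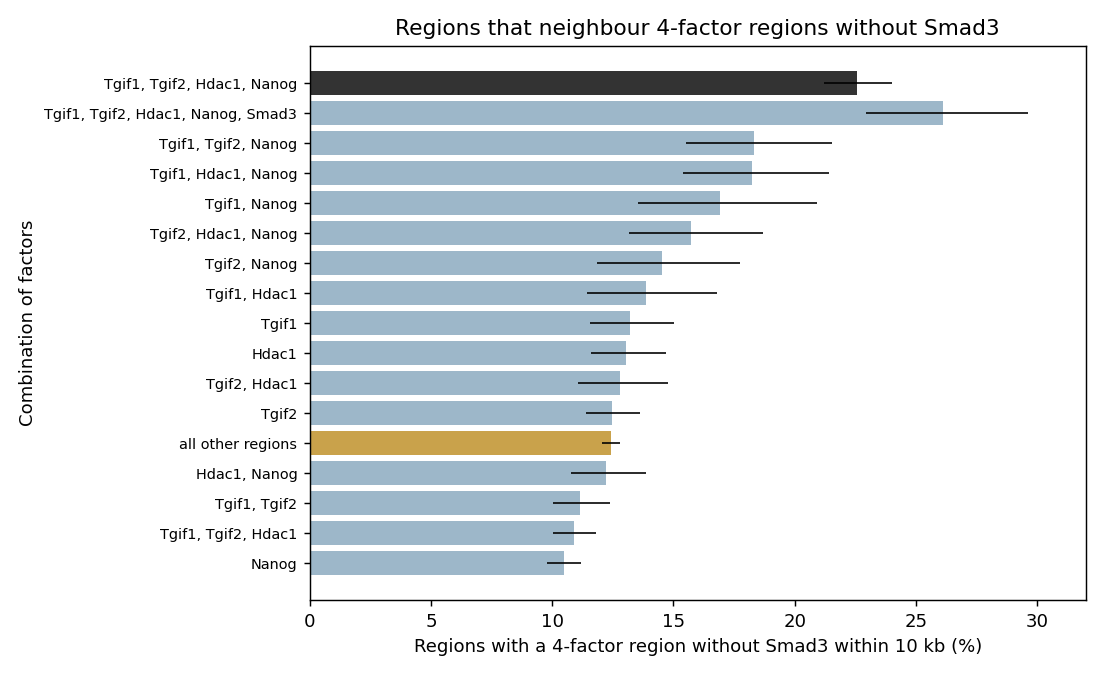
Percent of regions with a 4-factor region without Smad3 within 10 kb (x axis), by combination of factors (y axis), for combinations with at least 300 regions, with 95% Wilson intervals. The dark bar stands for the 4-factor regions themselves at 22.6%, and the bar for all other regions stands at 12.4%.

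Joining 4-factor regions across gaps of up to 10 kb gave 331 clusters of 2 or more, of which 70 held 3 or more and 7 held 5, the largest size. The clustered share was 22.6% for 4-factor regions, against 13.1% for 5-factor regions and 14.7% for regions with Tgif1, Tgif2 and Hdac1 only, each joined within its own class. The classes differ in number, which also sets how often neighbours occur. With gaps of up to 5 kb the share was 14.7%, and with 25 kb 34.1%. The 3 shortest clusters of 5 were chr8:123051808-123063848, chr11:97659880-97675091 and chr1:169203169-169220735, over 12.0, 15.2 and 17.6 kb. In the cluster on chromosome 8 the Nanog fold ranged from 12.9 to 44.4 and the Tgif1 fold from 8.08 to 19.9. In that on chromosome 11 the Tgif1 fold ranged from 16.3 to 34.5 and the Nanog fold from 7.99 to 14.9, so clusters differed in which factor was strong.

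The share of regions that were 4-factor regions varied moderately along the genome. It was highest on chromosome 1, with 341 of 2591 regions, or 13.2% (11.9 to 14.5), followed by 11.8% on chromosome 11 and 11.7% on chromosome 17. It was lowest on chromosomes 3 and 6, with 8.33% (6.99 to 9.90) and 8.32% (7.01 to 9.85). Chromosome 1 held 10.1% of all 4-factor regions, while it held 7.13% of Tgif1, 7.09% of Hdac1, 8.37% of Tgif2 and 9.58% of Nanog peaks. With peaks joined by summits within 200 bp its share was 7.22%, against 5.80% over all 19, and it was still the highest. Without peaks under their list's median fold its share was 3.39%, against 3.91% over all 19, and it ranked 16 of 19. The share of regions with the 4 factors that also held Smad3 ran from 11.0% on chromosome 15 to 22.4% on chromosome 6.

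**Figure D5:**
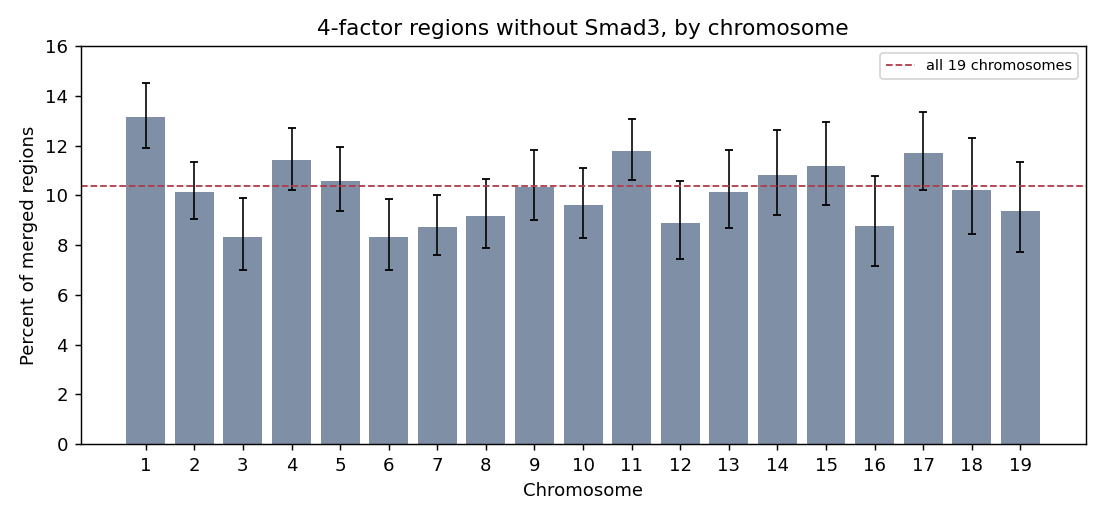
Percent of merged regions that are 4-factor regions without Smad3 (y axis) on each of chromosomes 1 to 19 (x axis), with 95% Wilson intervals; the dashed line marks 10.4% over all 19. Chromosome 1 is highest at 13.2% and chromosome 6 lowest at 8.32%.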

How the data were processed

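The lists were made by the authors with BWA 0.5.9-r16 and MACS on mm9, per the submitters' processing notes. Settings, the MACS version and the control behind each list are not given in the sources used here. The deposited lists have no header, so columns were read from their values. The column read as fold enrichment is a ratio of tags in a peak to background that the authors' MACS run made before the lists were deposited. The column read as the tag count is the number of reads per peak, made by the authors in the same MACS run as deposited, not normalized. A position inside the peak was taken as the summit.

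Peaks sharing 1 bp or more were merged, and the 32551 regions were equal to those of bedtools 2.31.1, with 0 differences. On simulated data, 402 of 402 planted 4-factor regions were found. These held 1 peak per factor, overlapped widely and lay far apart, so joins over few bases or of many peaks were not tried. Percentiles were taken within each whole list. Shares have Wilson intervals, and medians have order-statistic intervals. No test was made, because each factor had 1 library.

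The regions and comparisons were chosen with earlier results of these data known. Named regions followed a written rule: the 10 strongest in their weakest list, the 3 leading per factor, the 3 widest, the 3 strongest with summits within 20 bp, the 3 nearest to Smad3, the 3 least firmly joined, the 3 5-factor regions where Smad3 overlapped the other peaks over the fewest bases, and the 3 largest clusters, ties broken by length. Sequence, genes and promoters of mm9 were not used here. Python 3.11.15, NumPy 2.4.6, pandas 2.3.3, SciPy 1.17.1 and matplotlib 3.10.9 were used.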

Additional observations from a re-analysis of the deposited data

Results flagged for a closer look

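Regions outside chromosomes 1 to 19 were not used in the comparisons, yet 13 of the 601 merged regions there carried Tgif1, Tgif2, Hdac1 and Nanog without Smad3. Of these, 11 were on the X chromosome, where 428 regions were found, a share of 2.57%, against 10.4% on chromosomes 1 to 19. The other 2 were on unplaced sequence of chromosome 1. They are given because they lie in data that the report left aside. Why the share was lower on the X chromosome was not tested.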

How the results depend on the processing

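Of 128 alternative values, 82 stayed within the interval of the reported value, or within 1.5 times a reported count, and 46 did not. The 2 differences with a sign, in Smad3 share and in neighbours, kept it under every setting tried. The Nanog percentile, under its list's median by fold at 46.0, was above it by tags, and above the median of the shortened list when weaker peaks were left out. Causes were not tested unless the setting's construction gives them. When peaks under their list's median fold were left out, which leaves fewer peaks, the number of regions was 784 and the median percentiles, now within the shortened lists, were 68.1 for Tgif1, 61.7 for Tgif2, 69.7 for Hdac1 and 60.9 for Nanog. The span was 97 bp, the share within 200 bp 71.7%, the share near Smad3 3.70%, the clustered share 8.42%, its excess over other regions 5.17 points and the chromosome 1 share 3.39%. The Smad3 difference between the strongest and the weakest Nanog group, 42.8 points as reported, was then 31.8. It was 51.7 by tags, 39.0 with 1 peak per factor and 34.8 when the 1% of peaks richest in tags was left out. Joining peaks by summits within 200 bp gave percentiles of 60.9 for Tgif1, 61.3 for Hdac1 and 49.2 for Nanog, a span of 88 bp, 87.1% within 200 bp, 23.3% with the Tgif paralogs closest, 8.20% near Smad3, 18.8% clustered with an excess of 8.29 points, 7.22% on chromosome 1 and 0.785% with separate pairs. Peaks of 250 bp either side of the summit gave 115.5 bp, 68.5%, 19.9% clustered with an excess of 7.89 points, 10.3% on chromosome 1 and 3.20% with separate pairs. Joining gaps of up to 500 bp gave a span of 216.5 bp, 48.3% within 200 bp, 6.13% near Smad3 and 20.3% clustered. An overlap of at least 50% gave 56.3% within 200 bp. The span was 134 bp with 1 peak per factor and 259 bp with midpoints. By tags the percentiles were 62.0 for Tgif1, 63.7 for Tgif2, 70.1 for Hdac1 and 63.6 for Nanog. Without chromosome 1 the Hdac1 percentile was 59.3. Clusters within 5 kb held 14.7% and within 25 kb 34.1%. The settings for chromosome 1, Nanog groups, separate pairs and excess were added after the data were seen. Alternatives on sequence and gene starts were not run, because sequence and annotation of mm9 were not used here. No paired analysis was possible because each factor had 1 library.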

Other observations

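Regions that lacked 1 of the 4 factors, and Smad3, had weaker peaks by tags of most of the factors they kept. The Tgif2 peak stood at a median percentile of 63.7 in 4-factor regions and 28.7 in the 668 regions without Tgif1. The Tgif1 peak stood at 62.0 in 4-factor regions and 27.5 in the 631 regions without Tgif2. The Nanog peak stood at 63.6 in 4-factor regions and 46.8 in the 627 regions without Hdac1. Exceptions were Tgif2, at 63.7 in 4-factor regions and 66.4 in the 4895 regions without Nanog, and Nanog, at 63.6 in 4-factor regions and 67.0 in regions without Tgif2. By fold the Tgif2 peak stood at 54.9 in 4-factor regions and 43.5 without Tgif1, and the Tgif1 peak at 59.1 and, without Tgif2, 42.6. Nanog by fold was at 46.0 in 4-factor regions, 31.5 without Hdac1, but 47.8 without Tgif1 and 52.5 without Tgif2. Tgif2 by fold was also higher without Nanog, at 58.8.

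A peak of the missing factor lay within 10 kb of 43.9% of regions without Tgif2, 41.3% of those without Hdac1, 39.5% of those without Tgif1 and 27.4% of those without Nanog. Within 500 bp the shares were 6.81% without Tgif2, 7.34% without Hdac1, 3.89% without Tgif1 and 2.33% without Nanog. Shares over all regions that lack each factor are not given here, and the lists differ in length. The order of factors is therefore not shown to be particular to these regions.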
